A study of Homo sapiens with 3 samples.

Results

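Keratins and mucins are the structural and secretory proteins by which an airway epithelial cell is usually recognised. Of the 58735 genes in the deposited tables, 9 are described here, 6 keratins (KRT7, KRT8, KRT18, KRT19, KRT80 and KRT81) and 3 mucins (MUC1, MUC5AC and MUC5B), chosen by name and found once each in the count tables. RNA was sequenced from A549, an established human lung adenocarcinoma line grown in F12K medium with fetal bovine serum, in 3 libraries with 1 library per condition. One library came from control cells and 1 from cells carrying each of 2 shRNAs against the RNA helicase DDX24 (DDX24-sh1 and DDX24-sh2). According to the methods of the study, the knockdown lines were made with lentiviral pLKO.1 vectors and kept under puromycin. The control carried the empty vector. The labels do not say that the sequenced RNA came from these lines. If it did, all 3 libraries come from transduced and selected populations. Elsewhere the study names a control shRNA, and which of these the control library holds is not known.

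Keratins are intermediate filament proteins that build filaments only as pairs of an acidic type I chain and a basic type II chain. KRT8 and KRT18 are the pair of simple epithelia, KRT7 and KRT19 join them in ductal and airway epithelium, and KRT81 belongs to the hard keratins first known from hair. Mucins are large glycoproteins whose repeated, threonine- and serine-rich stretches carry dense O-linked sugars. MUC1 is anchored in the apical membrane, while MUC5AC and MUC5B are the gel-forming mucins of airway mucus, secreted mostly by goblet cells and by submucosal glands.

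The counts summed to between 17218884 and 18337471 per library. The targeted gene, DDX24, had 2010, 637 and 765 counts in Control, DDX24-sh1 and DDX24-sh2, and the scaled levels of the shRNA libraries were 29.6% and 36.0% of Control. The names of the shRNA libraries are exchanged between the deposited counts and the deposited FPKM values: the counts named DDX24-sh1 were proportional to FPKM times gene length only for the FPKM named DDX24-sh2, where 100% of 12171 genes lay within 1% of a constant, against 5.23% with the names as given. The names below are those of the counts, and which kind of table carries the right name cannot be told apart, so a statement about 1 shRNA holds for the library and not with certainty for the shRNA. Mitochondrial genes took 4.36% of the counts in Control, 5.13% in DDX24-sh1 and 7.04% in DDX24-sh2, more in both shRNA libraries than in Control, and the part of this in the values below was not tested. The epithelial marker CDH1 was present with 538, 358 and 261 counts in Control, DDX24-sh1 and DDX24-sh2, and EPCAM was low with between 29 and 32. Of 8 alveolar type II markers 3 were at 0 in all 3 libraries (SFTPA1, SFTPA2 and NKX2-1), and SFTPB, SFTPC and LAMP3 had at most 13 counts. ABCA3, a lipid transporter of lamellar bodies, had 1421, 1512 and 1137 counts and NAPSA had 23, 28 and 36, so the summed level of this list was 85.5, 84.6 and 65.8 CPM. Of 5 basal and squamous markers the keratins KRT5, KRT14, KRT6A and KRT13 were at 0 in all 3 libraries, and the transcription factor TP63 had 46, 43 and 47 counts. The summed level of 4 club and secretory cell markers was at most 0.0586 CPM, and that of 4 blood cell markers at most 0.277 CPM. Ciliated cell markers summed to between 3.75 and 4.92 CPM, fibroblast markers to between 8.86 and 11.9 CPM and endothelial markers to at most 0.765 CPM. In RNA from a whole culture, fewer cells that express a gene and less of its RNA per cell cannot be told apart.

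In the control library every keratin of the set stood above every mucin. In CPM (counts scaled to a common library size) per kilobase of gene length, KRT81 stood highest at 1886, followed by KRT7 at 579, KRT8 at 551 and KRT18 at 451. KRT80 reached 48.9 and KRT19 reached 25.1. MUC1 was at 1.12, MUC5B at 0.451 and MUC5AC at 0.343. Each step in this order exceeded counting error, including KRT7 over KRT8 (ratio 1.05, 95% interval 1.04 to 1.06) and MUC5B over MUC5AC (ratio 1.32, interval 1.01 to 1.71), but the order rests on the deposited gene lengths. By level per kilobase, KRT81 ranked 12 among all genes of the control library, KRT7 37, KRT8 40 and KRT18 58, while the mucins ranked from 11750 to 15040. In both shRNA libraries KRT19 came above KRT80 and MUC5AC above MUC5B, and the rest of the order was that of the control library.

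**Figure D1:**
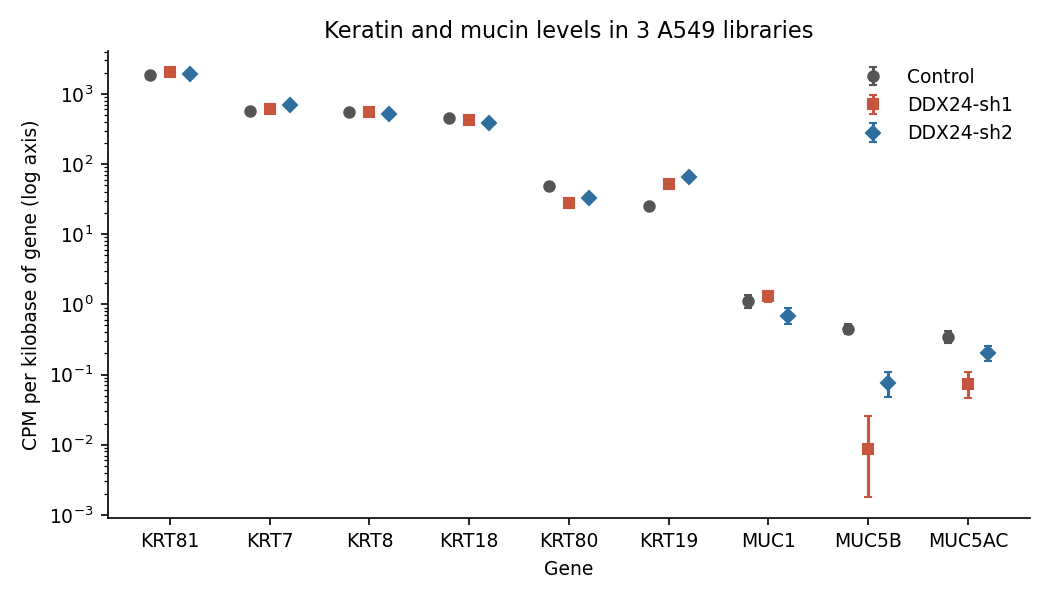
Level of the 9 genes in the 3 libraries, in CPM per kilobase of gene on a log axis; bars are exact 95% Poisson intervals of the counts and, where not visible, are smaller than the symbol. KRT81, KRT7, KRT8 and KRT18 stay near their control levels, KRT19 is higher and KRT80 lower in both shRNA libraries, and MUC5B is at 0.451 in Control and 0.00882 in DDX24-sh1.

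For each shRNA library the log2 ratio to Control was taken from CPM scaled by the trimmed mean of M-values (TMM), with a prior count of 2, and intervals are exact 95% intervals from the counts of both libraries. They cover counting error only, since no condition has a replicate, and no test between conditions was run. A filter at a mean of 1 CPM kept 13984 genes, among them all 9 members, MUC5B passing mostly through its control count. In DDX24-sh1, 2.32% of these genes were higher than Control by 2-fold or more and 2.27% lower by as much, and the shares for DDX24-sh2 were 2.89% and 3.07%. In both libraries at once, 1.19% were higher and 1.38% lower by this limit. KRT19 was the 1 member among the former and MUC5B the 1 member among the latter, and MUC5AC passed the limit in DDX24-sh1 alone. The 9 members had median log2 ratios of 0.0033 (DDX24-sh1) and -0.22 (DDX24-sh2), beside -0.02 and -0.03 over all 13984 genes. Both comparisons share the control library.

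A counting interval that leaves out 0 was no rare property at this depth. It was found in 53.1% of the 13984 genes for DDX24-sh1 and 54.5% for DDX24-sh2, and for 7 and 9 of the 9 members. The members left inside the interval were KRT8 and MUC1, both in DDX24-sh1.

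KRT8, the type II chain of the simple epithelial pair (ENSG00000170421, GRCh38 chr12:52897187-52949954, minus strand), had 64704 counts in Control, 69499 in DDX24-sh1 and 63926 in DDX24-sh2. Scaled for library size, the 3 libraries were nearly level. The log2 ratio to Control was 0.0033 in DDX24-sh1 (interval -0.01 to 0.02) and -0.10 in DDX24-sh2 (interval -0.11 to -0.08). KRT18, its type I partner (ENSG00000111057, chr12:52948871-52952901, plus strand), had 24754, 24998 and 22548 counts in the same order. It was at 94.2% of Control in DDX24-sh1 (interval 92.6% to 95.9%) and 86.1% in DDX24-sh2 (interval 84.6% to 87.7%). KRT18 was thus slightly lower in both shRNA libraries, by less than 2-fold.

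Because library scaling cancels within a library, the ratio of KRT8 to KRT18 can be compared without it. Per gene length it was 1.22 in Control (interval 1.20 to 1.24), 1.30 in DDX24-sh1 (interval 1.28 to 1.32) and 1.33 in DDX24-sh2 (interval 1.31 to 1.35). The ratio was higher in both shRNA libraries than in the control library, with intervals that did not overlap Control's. Its absolute size depends on the length used: the deposited gene length of KRT8, 6881 bases, merges many transcripts, and with the principal transcripts of 1882 and 1562 bases the ratio was 2.17 in Control, 2.31 in DDX24-sh1 and 2.35 in DDX24-sh2.

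Reads of this pair can also be assigned to other genes. KRT8 and KRT18 overlap on opposite strands over 1084 bases, 525 of them exonic in both, and the strand setting of the counting is not given in the sources used here. Of the principal KRT8 transcript 64.1% lies in stretches of at least 50 bases found exactly in another annotated gene, and 76.2% of that of KRT18. Most of these genes are processed pseudogenes, intronless copies of the mRNA. In the counts, 50 KRT8 pseudogenes together held 307, 314 and 350 in Control, DDX24-sh1 and DDX24-sh2, at most 0.548% of the KRT8 count. The 65 KRT18 pseudogenes held 11, 18 and 25. How reads with more than 1 best position were counted is not given either, so these low counts cannot show how many reads are shared.

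KRT7, the type II keratin of glandular and airway epithelium (ENSG00000135480, chr12:52232520-52252186, plus strand), had 40475 counts in Control, 45346 in DDX24-sh1 and 50979 in DDX24-sh2. Both shRNA libraries were above Control, at 104.5% in DDX24-sh1 (interval 103.1% to 106.0%) and 119.1% in DDX24-sh2 (interval 117.6% to 120.7%). KRT7-AS, a transcript on the opposite strand sharing 282 exonic bases with KRT7, had 173, 181 and 282 counts. KRT87P, a keratin pseudogene that shares 32, had 768, 1190 and 1001.

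KRT81 (ENSG00000205426, chr12:52285913-52291534, minus strand) had the highest level per kilobase of deposited length of all 9 genes, with 62083 counts in Control, 71912 in DDX24-sh1 and 67908 in DDX24-sh2. In Control KRT8 had more counts, 64704. Its deposited length of 6881 bases merges many transcripts, against 1929 bases for KRT81, so this first place depends on the lengths used. Relative to Control, the log2 ratio of KRT81 was 0.11 in DDX24-sh1 (interval 0.10 to 0.13) and 0.05 in DDX24-sh2 (interval 0.03 to 0.06). The counts of KRT81 rest on separating it from KRT86, another hard type II keratin, whose gene body surrounds it on the opposite strand with no exonic base in common, and which is 93.6% identical over 1454 aligned coding bases. KRT86 had 2565, 2990 and 3032 counts, so KRT81 held 24.2, 24.1 and 22.4 times as many. The sum of both genes gave log2 ratios of 0.11 and 0.05.

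The sequences of both genes are shown to make clear where a read can and cannot tell them apart. Coding bases 1207 to 1326 are the 120 bases in which they differ most, and the 19 differing positions are in capitals. They cover chr12:52286447-52287142 of KRT81 on the minus strand and chr12:52306240-52308450 of KRT86 on the plus strand, in coding exons joined across intron sequence.

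KRT81: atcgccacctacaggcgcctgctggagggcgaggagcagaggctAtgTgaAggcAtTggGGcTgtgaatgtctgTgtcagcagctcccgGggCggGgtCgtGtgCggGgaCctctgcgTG
KRT86: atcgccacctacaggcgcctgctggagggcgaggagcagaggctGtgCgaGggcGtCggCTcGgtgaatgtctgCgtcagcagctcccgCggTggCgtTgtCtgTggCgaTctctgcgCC

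Coding bases 61 to 180, in the first coding exon of each gene, hold no difference. The same 120 letters stand at chr12:52291286-52291405 of KRT81 and at chr12:52301977-52302096 of KRT86, and a read from there fits both genes.

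KRT81 and KRT86: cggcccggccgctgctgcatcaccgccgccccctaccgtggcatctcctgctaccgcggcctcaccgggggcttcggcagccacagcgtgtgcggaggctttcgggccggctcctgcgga

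Of the principal KRT81 transcript 966 of 1929 bases lie in exact stretches of at least 50 bases shared with KRT86. How reads with more than 1 best position were counted is not given in the sources used here, so the split between both genes is uncertain. Their sum can change with that rule too, and KRT81 also shares 509 bases with KRT83, 464 with KRT87P and 359 with KRT85, which are outside the sum.

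KRT19, the smallest type I keratin and a widely used marker of simple and airway epithelium (ENSG00000171345, chr17:41523617-41528308, minus strand), had 1001 counts in Control, 2251 in DDX24-sh1 and 2728 in DDX24-sh2. Both shRNA libraries held more than 2 times the control level. KRT19 was 2.10-fold higher in DDX24-sh1 (209.8% of Control, interval 194.7% to 226.3%) and 2.58-fold higher in DDX24-sh2 (257.7%, interval 239.6% to 277.3%). The interval in DDX24-sh1 includes values just under 2-fold. Among the 13984 genes its ratio ranked 270 from the highest in DDX24-sh1 and 176 in DDX24-sh2. Only 8.78% of its principal transcript is shared exactly with another gene, the pseudogene KRT19P1, which had 0 counts in all 3 libraries.

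KRT19 and KRT18 are the type I chains among the members. KRT19 made up 3.89% of their summed counts in Control (exact binomial interval 3.65% to 4.13%), 8.26% in DDX24-sh1 (interval 7.94% to 8.59%) and 10.8% in DDX24-sh2 (interval 10.4% to 11.2%). KRT18 had the higher count of this pair in all 3 libraries. KRT10, a type I keratin outside the members, had 1196 counts in Control and so more than KRT19 there.

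On chromosome 17, KRT19 lies 1088 bases from KRT15, another type I keratin. KRT15 had 12 counts in Control, 51 in DDX24-sh1 and 84 in DDX24-sh2, log2 ratios of 1.83 and 2.55. KRT16, on the other side, had 8, 19 and 27 counts, and its log2 interval in DDX24-sh1, -0.11 to 2.55, includes 0. The next expressed gene there, EIF1, a translation initiation factor, had 14265, 9231 and 9060 counts and was lower in both shRNA libraries. Beyond KRT15, the next expressed protein-coding gene, TMEM99, had 411, 433 and 394 counts, log2 ratios of -0.02 and -0.14. KRT15, KRT16, TMEM99 and EIF1 were named after their values were seen. KRT15 and KRT16 passed the filter at a mean of 1 CPM mostly through their shRNA libraries. A higher ratio is therefore partly built in for them.

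KRT80, a type II keratin of broad epithelial distribution (ENSG00000167767, chr12:52168996-52192000, minus strand), had 3630 counts in Control, 2249 in DDX24-sh1 and 2581 in DDX24-sh2. Both shRNA libraries were below Control. The level was 57.8% of Control in DDX24-sh1 (interval 54.8% to 61.0%) and 67.2% in DDX24-sh2 (interval 63.9% to 70.7%), neither of them 2-fold lower. LINC00592, which overlaps KRT80 on the opposite strand with no exonic base in common, had between 6 and 10 counts. KRT80 shares 1.68% of its principal transcript exactly with other genes.

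**Figure D2:**
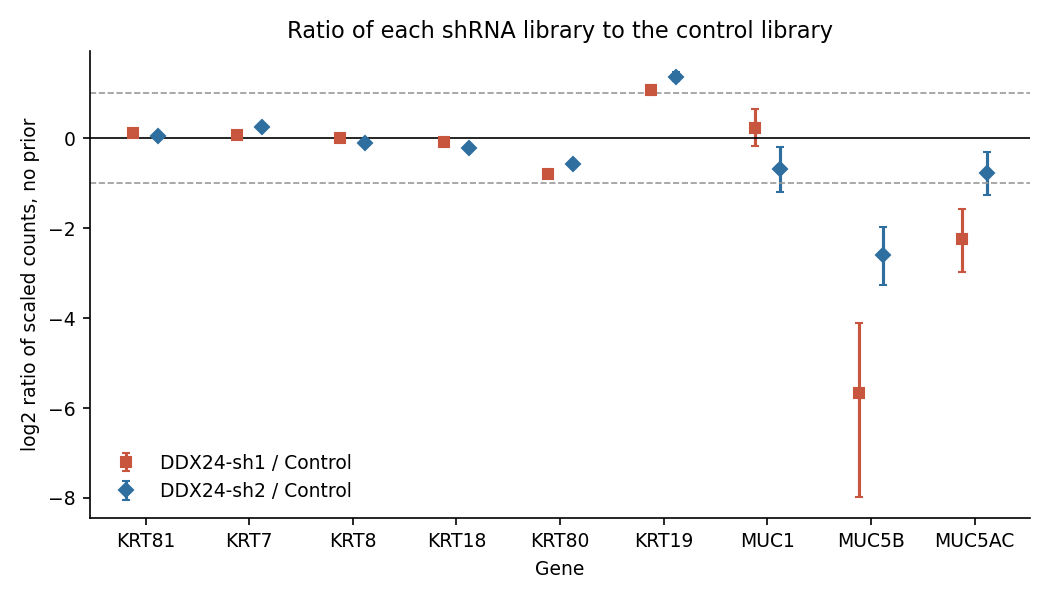
Log2 ratio of each shRNA library to Control for the 9 genes, from scaled counts without a prior count, with exact 95% counting intervals; dashed lines mark 2-fold. KRT19 lies above the upper line in both libraries, MUC5B below the lower line in both, and MUC5AC below it in DDX24-sh1, while KRT81, KRT7, KRT8 and KRT18 lie close to 0.

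As a group, the keratins took similar shares of the libraries. The 6 genes held 1.14% of all counts in Control (exact binomial interval 1.14% to 1.15%), 1.18% in DDX24-sh1 (interval 1.17% to 1.18%) and 1.18% in DDX24-sh2 (interval 1.17% to 1.19%). Per gene length, KRT81 made up 53.3%, 55.1% and 53.6% of their sum in Control, DDX24-sh1 and DDX24-sh2. The type I members made up 13.4%, 12.9% and 12.4%. KRT19 went from 0.709% of the sum in Control to 1.42% and 1.78%, and KRT80 from 1.38% to 0.764% and 0.903%. These shares rest on the deposited gene lengths. For KRT81 that length, 1929 bases, equals the principal transcript. For KRT7, KRT8 and KRT18 it is 4093, 6881 and 3218 bases, against principal transcripts of 1754, 1882 and 1562. By principal transcript the share of KRT81 would be smaller.

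**Figure D3:**
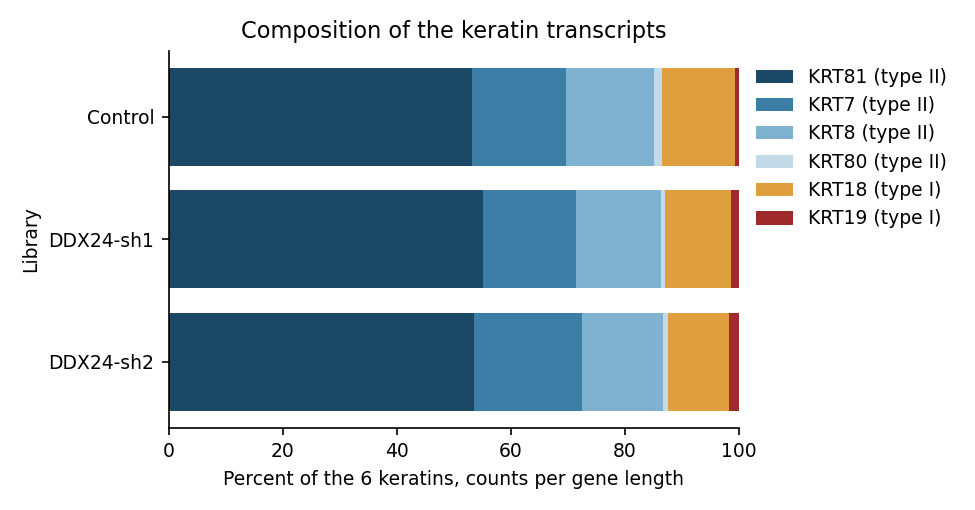
Share of each of the 6 keratins in their sum of counts per deposited gene length, in percent, for the 3 libraries. The shares depend on the lengths used. KRT81 holds between 53.3% and 55.1% of each bar, and the KRT19 segment widens from 0.709% in Control to 1.78% in DDX24-sh2.

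The mucins had few reads throughout. Together they held 335 counts in Control, 139 in DDX24-sh1 and 147 in DDX24-sh2, or 19.5, 7.58 and 8.24 CPM by total counts. In this sum both shRNA libraries were below Control and close to each other, while each gene had its own pattern.

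MUC1, the membrane mucin (ENSG00000185499, chr1:155185824-155192916, minus strand), had 90 counts in Control, 113 in DDX24-sh1 and 59 in DDX24-sh2. Levels in the shRNA libraries lay on either side of the control library. DDX24-sh1 was at 117.2% of Control with an interval of 88.0% to 156.3%, so no difference was detectable there at this depth. DDX24-sh2 was at 62.0% (interval 43.9% to 87.0%). DDX24-sh2 was at 52.9% of DDX24-sh1 (interval 38.0% to 73.1%).

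MUC5AC, a gel-forming mucin of surface goblet cells (ENSG00000215182, chr11:1157953-1201138, plus strand), had 102 counts in Control, 23 in DDX24-sh1 and 63 in DDX24-sh2. It was lower than Control in both, at 21.0% in DDX24-sh1 (interval 12.8% to 33.3%) and 58.4% in DDX24-sh2 (interval 42.0% to 80.7%). Its log2 ratio with the prior count was -2.15 and -0.76, so it passed 2-fold in DDX24-sh1 and not in DDX24-sh2. From the deposited FPKM with the shRNA names exchanged, as log2(FPKM + 0.1), it was -1.35 and -0.55.

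MUC5B, the gel-forming mucin of glands and small airways (ENSG00000117983, chr11:1223066-1262172, plus strand), had 143 counts in Control, 3 in DDX24-sh1 and 25 in DDX24-sh2. Exact 95% Poisson intervals of these counts were 120.5 to 168.5, 0.619 to 8.77 and 16.2 to 36.9. They do not overlap. DDX24-sh1 was at 1.96% of Control (interval 0.399% to 5.84%) and DDX24-sh2 at 16.5% (interval 10.3% to 25.4%). With the prior count, which pulls low counts together, the log2 ratios were -4.94 and -2.50. From the deposited FPKM with the names exchanged and the same pseudocount they were -2.33 and -1.65, so the size of the difference depends on how low values are treated. Among the 13984 genes this ratio was the lowest in DDX24-sh1 and ranked 20 from the lowest in DDX24-sh2. MUC5B passed the filter for these genes mostly through its control count, so a low rank is partly built in.

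Both gel-forming mucins have very long transcripts with repeats, and the repeat units are shown because reads that fall within them have no single position in the gene. Of the principal transcript of MUC5AC 34% lies in exact repeats of at least 50 bases within itself, and of that of MUC5B 40.3%. The MUC5AC unit below, of 24 bases, occurs 16 times without a mismatch in the coding sequence and first at chr11:1185245-1185268. The MUC5B unit, of 87 bases, occurs 5 times and first at chr11:1243189-1243275. Both lie in coding exons on the plus strand of GRCh38, and nothing is in capitals. Runs of closely alike neighbouring units at a spacing of 24 bases cover 24.4% of the MUC5AC coding sequence. At a spacing of 87 bases such runs cover only 4.2% of that of MUC5B.

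MUC5AC unit: ctcctacaaccagcacaacctctg
MUC5B unit: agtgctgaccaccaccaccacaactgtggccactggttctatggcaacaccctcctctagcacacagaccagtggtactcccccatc

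The genes share little with each other, 164 bases in exact stretches, and 59.0% of 16450 aligned coding bases. MUC5B-AS1, on the strand opposite MUC5B, had 0 counts in all 3 libraries. The 4 nearest expressed protein-coding genes around the pair had log2 ratios between -0.12 and 0.30. AP2A2, an adaptor protein subunit that lies before MUC5AC, had 2086, 2758 and 2265 counts, and TOLLIP, a regulator of Toll-like receptor signalling 12199 bases beyond MUC5B, had 1508, 1758 and 1471. The deposited lengths of MUC5AC and MUC5B are 17448 and 18598 bases. Over the 425 expressed genes of at least 15000 bases, a limit set after the values were seen, the median log2 ratio was -0.11 in both shRNA libraries, against -0.02 and -0.03 over all genes. The part of transcript length in the mucin values was not tested.

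The shRNA libraries were also set against each other, which leaves the control library out. All 9 members had a counting interval beyond 0 in this comparison, as had 44.7% of the 13984 genes. KRT19 was 1.23-fold higher in DDX24-sh2 than in DDX24-sh1 (interval 116.1% to 129.9%). KRT80 was 1.16-fold higher and KRT7 1.14-fold higher. KRT8, KRT18 and KRT81 were at 93.2%, 91.4% and 95.7% of DDX24-sh1. MUC5AC was 2.78-fold higher in DDX24-sh2 (interval 169.8% to 469.0%) and MUC5B 8.44-fold higher (interval 257.7% to 4370%).

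Genes that work with these proteins were described from 7 lists, counting those that reached a mean of 1 CPM. Few other keratins or mucins reached that level. Of 22 other type II keratins 2 did, KRT86 and KRT4, and 11 were at 0 in all 3 libraries. KRT4, a keratin of stratified mucosa, had 75, 22 and 11 counts in Control, DDX24-sh1 and DDX24-sh2. Of 27 other type I keratins 3 did, KRT10, KRT15 and KRT16. KRT15 and KRT16 did so mostly through the shRNA libraries, KRT16 with a mean of 1.001 CPM. KRT10, a keratin of differentiated epidermis, had 1196, 1160 and 873 counts, while KRT34, a hair keratin under that level, had 16, 23 and 9. Of 16 other mucins 4 did, with median log2 ratios of -0.05 and -0.18. MUC13, a membrane mucin, had 142, 97 and 142 counts, and OVGP1, an oviduct glycoprotein, had 21, 20 and 18.

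The expressed genes for proteins that tie keratins to other structures were all within 2-fold of Control. Of 18 keratin linkers and desmosome genes 15 were expressed, 8 higher and 7 lower in DDX24-sh1 and 6 higher and 9 lower in DDX24-sh2, with medians of 0.05 and -0.04. PLEC, the plectin that links intermediate filaments to other cytoskeletal parts, had 29497, 31115 and 31945 counts. JUP, the plakoglobin of desmosomes, had 10694, 11192 and 6511 counts, log2 ratios of -0.03 and -0.80. Of 12 other intermediate filament genes 8 were expressed, none 2-fold from Control, with medians of -0.00052 and -0.13. VIM, the vimentin of mesenchymal cells that A549 also expresses, had 5368, 5960 and 8222 counts, log2 ratios of 0.05 and 0.53. LMNA, which encodes nuclear lamins, had 8077, 9643 and 10164.

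Of 25 enzymes of mucin-type O-glycosylation 20 were expressed, 15 of them higher than Control in DDX24-sh1 and 13 in DDX24-sh2, with medians of 0.30 and 0.15 and none 2-fold from Control. Over all genes 47.4% and 47.0% were higher. GALNT10 and GALNT1, which attach the first sugar, had log2 ratios of 0.18 and 0.33 in DDX24-sh1 and 0.20 and 0.56 in DDX24-sh2.

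Of 27 regulators and products of airway secretory cells 13 were expressed, and 8 were at 0 in all 3 libraries. In DDX24-sh1 9 were lower than Control and 4 higher, and in DDX24-sh2 10 were lower and 3 higher, with medians of -0.49 and -0.57. The higher genes were 30.8% and 23.1% of those expressed, beside 47.4% and 47.0% over all 13984 genes. The list was chosen with earlier results of these data known. HIF1A, the oxygen-regulated transcription factor, had 17899, 21176 and 15655 counts. EGFR, the epidermal growth factor receptor, had 16717, 10516 and 8004 counts, log2 ratios of -0.77 and -1.14.

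Other genes of this list are named after their values were seen. SPDEF, a transcription factor of goblet cell differentiation, had 78 counts in Control, 31 in DDX24-sh1 and 23 in DDX24-sh2, log2 ratios of -1.37 and -1.76 from few reads. FOXA2, a transcription factor of lung and gut epithelium, had 730, 363 and 402 counts, log2 ratios of -1.10 and -0.94. AGR2, an endoplasmic reticulum protein needed for mucin folding, had 623, 355 and 354 counts, log2 ratios of -0.91 and -0.89. STAT6, the transcription factor of interleukin signalling, was higher instead, with 1550, 2211 and 2144 counts. CREB3L1 had 61, 103 and 80 counts and EHF had 203, 251 and 249. The intervals of EHF in both shRNA libraries and of CREB3L1 in DDX24-sh2 include 0. Of the 13 expressed genes of the list 9 were lower and 3 higher in both shRNA libraries.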

How the data were processed

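RNA libraries of A549 cells, 1 per condition, were compared. The authors deposited raw counts per gene and FPKM values (counts per gene length and library size). The submitters' processing notes name Bowtie2 2.0.6, TopHat2 2.0.9, Cufflinks 2.1.1 and Cuffdiff 2.1.1; the counter, its strand setting and the handling of multiply mapped reads are not given in the sources used here. All 58735 genes match GENCODE 29 (GRCh38) in start and end. Counts of all genes were scaled with edgeR 4.0.16 in R 4.3.3 (TMM, prior count 2), and a filter at a mean of 1 CPM was applied afterwards. Intervals are exact 95% Clopper-Pearson or Poisson intervals (scipy 1.17.1) and cover counting error only, since no condition has a replicate. Reads are not independent molecules, so the intervals may be too narrow even for that error. No p-value was computed. Ratios and intervals were tested on simulated data. DESeq2 1.42.0 size factors, total counts, a prior of 0.5, FPKM as log2(FPKM + 0.1), other filters and sums with copies were the alternatives. Shared stretches were exact matches of at least 50 bases among GENCODE transcripts. Named were all members, genes of the lists 2-fold from Control in both libraries with a mean of at least 5 CPM (none besides members), the 2 most abundant per length of each list, and copies or overlapping genes. Members and lists were chosen with earlier results of these data known.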

Additional observations from a re-analysis of the deposited data

How the results depend on the processing

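For the members, DESeq2 size factors moved the 18 log2 ratios by at most 0.0131, total counts by at most 0.0291, a prior count of 0.5 by at most 0.511 and the sum with pseudogenes or KRT86 by at most 0.00461, with no change of sign. With total counts, 4 ratios moved beyond their narrow counting intervals, those of KRT7, KRT8, KRT18 and KRT81 in DDX24-sh2. The deposited FPKM with names as given moved the 18 ratios by up to 3.29 and changed 4 signs (KRT8 and MUC1 in both libraries). With the names exchanged, chosen after seeing the data, no sign changed, and 3 ratios moved beyond their counting interval: MUC5B to -2.33 (DDX24-sh1) and -1.65 (DDX24-sh2), and MUC5AC to -1.35 (DDX24-sh1). The difference between the shRNA libraries changed sign for all 9 members with the FPKM names as given, for example for KRT19 to -0.29, MUC1 to 0.83, MUC5AC to -0.80 and MUC5B to -0.68, since the libraries are exchanged there.

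The median of the members became -0.21 (DDX24-sh1) and 0.016 (DDX24-sh2) from the FPKM with names as given, 0.034 and -0.025 for the members at or above 10 CPM, which leaves out the mucins, and -0.19 in DDX24-sh2 with total counts. The number of genes at least 2-fold from Control, 643 and 834, was 3552 and 3936 without a filter, 206 and 274 at 10 CPM, and 2215 and 2532 at a limit of 1.5-fold. The KRT8 to KRT18 ratio from FPKM with names as given was 1.33 (DDX24-sh1) and 1.30 (DDX24-sh2), and by principal transcript length, chosen after seeing the data, 2.17, 2.31 and 2.35. No replicate could be left out. No paired analysis was possible because each condition has 1 library. Depth limits the mucins most: MUC5B in DDX24-sh1 rests on 3 counts.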
